A study of Mus musculus with 3 samples.

Results

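Of the insulin-like growth factor (IGF) system, both insulin receptor substrate genes, Irs1 and Irs2, and the binding protein genes Igfbp3 and Igfbp6 were modestly higher in RM1-MXRA7 than in RM1-VE cells, between 1.21-fold and 1.47-fold before and between 1.24-fold and 1.45-fold after correction for a trend over the array surface. The receptor gene Igf1r and the ligand gene Igf1 had signal, but neither passed the test in both of these fits. Igfbp2, Igfbp4, Igfbp5 and Igfbp7 were not well above background in either line. The genes described are Igfbp2 to Igfbp7, Igf1, Igf1r, Irs1 and Irs2. They were chosen by name, with earlier results of these data known. All noncontrol probes whose gene name in the files is one of these 10 were used. This gave 17 of 39429 distinct probes, of which 7 probes of 6 genes had enough signal to be tested.

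IGF1 and IGF2 are secreted growth factors that bind the receptor tyrosine kinase IGF1R. The activated receptor phosphorylates the docking proteins IRS1 and IRS2, which recruit PI3-kinase and so activate AKT and mTOR, while AKT keeps the FOXO transcription factors out of the nucleus. IGF binding proteins (IGFBPs) hold IGFs outside the cell, can block or prolong their access to the receptor, and are released from them by proteases. In the prostate, IGF signalling is known to support growth and survival of epithelial and tumour cells, and IGFBP3 is known mostly as an inhibitor of growth.

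RM1 cells come from a mouse prostate cancer. The RM1-MXRA7 line carries a transfected MXRA7 gene (matrix remodelling associated), and its control RM1-VE carries only the vehicle vector, as the labels give them. Both lines were kept in serum-containing medium with the selection drug G418 and were taken in exponential growth at day 2, and the labels name neither a promoter nor whether the cells were a clone or a pool. Each of 3 Agilent arrays (replicates 1 to 3) held total RNA of RM1-MXRA7 in Cy3 and of RM1-VE in Cy5. No dyes were swapped, so a probe's dye bias and a true difference cannot be told apart, and neither can fewer cells with a transcript and less of it per cell.

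Between 21787 and 24185 probes were well above background per channel. The arrays shared 1 slide and scan date, and their number limits the precision. The labels do not say whether replicates were separate cultures, so p-values measure only the spread between these arrays, which may be technical. Of 12 prostate epithelial marker genes, 5 were well above background in both lines (Krt8, Krt14, Krt18, Krt19 and Trp63) and 7 in neither, among them Pbsn, Cdh1 and Epcam. Of 10 mesenchymal markers, 9 were above background in both lines, as were 4 of 8 haematopoietic markers, Ptprc not among them, and 4 of 5 endothelial markers. The array holds 2 probes named Mxra7, and the labels do not say whether the construct contains the sequence they read. The brighter one had log2 ratios of RM1-MXRA7 over RM1-VE of 0.39, 0.39 and 0.15 (limma adjusted p = 0.00441), but a mean of 0.010 with the surface trend removed (limma adjusted p = 0.909). The other lay at 0.10 and 0.094 before and after removal and passed in neither. Directions below therefore rest on the dyes given in the labels and could not be checked with Mxra7.

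The log2 ratios of all probes ran with the position of the spot on the arrays, so each probe was tested in 2 fits, before and after a smooth surface over row and column was removed from each array. Rose and fell are written of a gene only if it passed a limma adjusted p of 0.05 in each fit, in the same direction. Of the 7 member probes tested, 5 were higher in both fits, where 11.3% of all 21805 tested probes were higher, and 0 were lower, where 12.2% of all were, or 23.5% in either direction. Before removal 5 were higher and 1 lower, where 24.2% and 23.1% of all probes were, or 47.3% in either direction. After it 5 were higher and 0 lower, where 15.9% and 15.6% of all probes were, or 31.5% in either direction. In Agilent's own processed signals 3 member probes were called, where 23.5% of all probes were. These were Igfbp3 probe 1, Igfbp6 and probe 1 of Irs1, and Irs2 was not among them. Probe 1 of Irs1 was kept through RM1-MXRA7 alone. Of the 6 probes well above background in both lines on all arrays, 4 were higher and 0 lower in both fits. The matching share of all probes under that stricter filter was not computed, so this count has no background beside it. Calls are common on these arrays, so a call alone does not set a gene apart from the rest. Of sizes in either direction, 5.31% of all tested probes had a ratio at least as large as that of Irs2 before removal. The share was 13.1% after it.

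**Figure D1:**
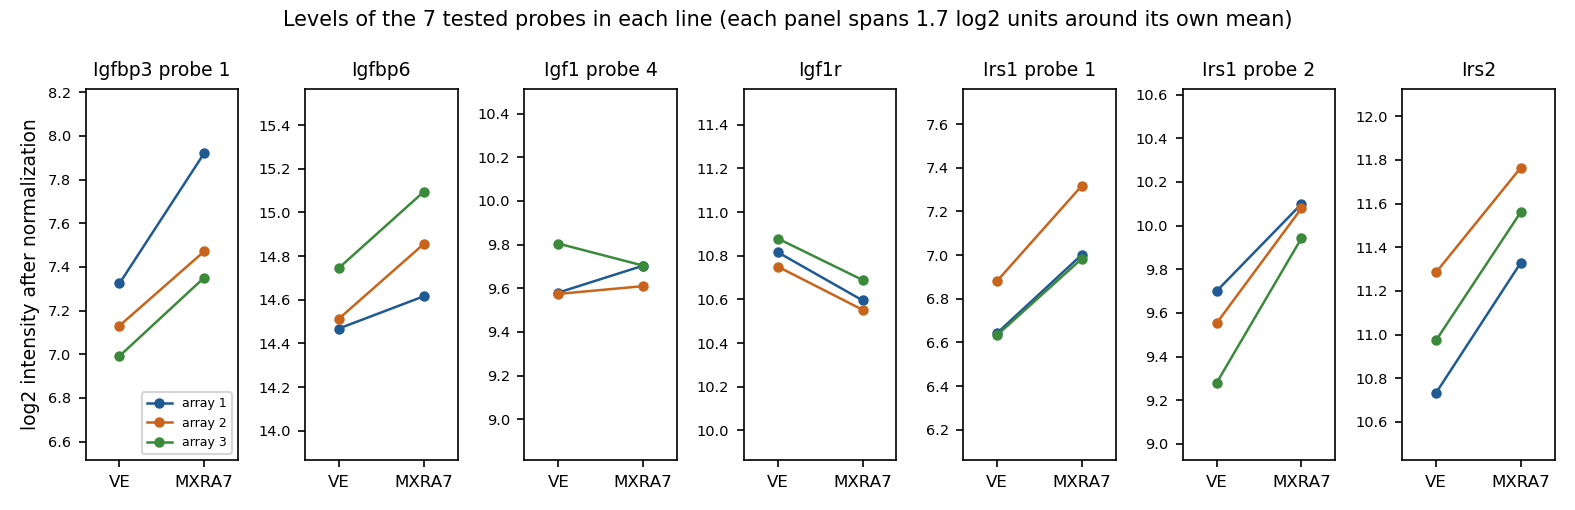
Normalized log2 intensity (vertical axis, 1 panel per probe, each panel spanning the same range of 1.7 log2 units) in RM1-VE and RM1-MXRA7 cells for the 7 tested probes, with 1 line per array. Igfbp3, Igfbp6, both Irs1 probes and Irs2 were higher in RM1-MXRA7 on all 3 arrays, Igf1r was lower on all 3, and Igf1 had no common direction.

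Among the substrate genes, Irs1 has 2 probes, both on the minus strand of chromosome 1 (mm9 coordinates of the array files), probe 1 at 82233564 to 82233623 and probe 2 at 82229692 to 82229751. Irs2 has 1 probe on chromosome 8, 11004490 to 11004549, minus strand. The files give no exon or UTR boundaries, so only the first 30 of the 60 bases of each probe are shown, to identify what was measured, with no part capitalised.
Irs1 probe 1: aatgaatgcttaaaacaaggctaaaaagag
Irs1 probe 2: tacccccaattctgtctggtacttagaatt
Irs2: tggagctttgccctctgccagcacctatgc
The 2 Irs1 probes start 3872 bases apart, share no stretch of 20 bases, and were read from the same RNA. Their spots lay close together on the arrays, probe 1 at row 99 and column 44 and probe 2 at row 97 and column 42. They are therefore not separate checks on the surface trend. No probe of another name shares 20 bases with any of the 17 member probes, on either strand.

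Irs2 encodes the docking protein that carries much of insulin and IGF signalling in liver and islets. Its log2 intensity was 10.73, 11.29 and 10.97 in RM1-VE and 11.33, 11.77 and 11.56 in RM1-MXRA7 on arrays 1, 2 and 3. The lines did not overlap, and the difference was positive on each array, at 0.60, 0.48 and 0.59. Irs2 rose by 0.55 ± 0.06 on the log2 scale (SD, n = 3; limma adjusted p = 2.46e-05), or 1.47-fold. With the surface removed the ratios were 0.37, 0.15 and 0.40, a mean of 0.31 ± 0.14 (SD, n = 3; limma adjusted p = 0.0085), or 1.24-fold. In Agilent's own processed signals the mean was 0.29 and did not pass (limma adjusted p = 0.0558).

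Irs1 encodes the related docking protein, prominent in muscle and fat and in growth control. Probe 2 had log2 intensities of 9.70, 9.55 and 9.28 in RM1-VE and 10.10, 10.08 and 9.94 in RM1-MXRA7, so the lines did not overlap. Its ratio was 0.53 ± 0.13 (SD, n = 3; limma adjusted p = 5.87e-05), or 1.44-fold. After surface removal it was 0.14, 0.27 and 0.53 on the 3 arrays, with a mean of 0.32 ± 0.20 (SD, n = 3; limma adjusted p = 0.0141). Array 3 was the highest of these, and in the processed signals, at 0.28, the call was lost (limma adjusted p = 0.105).

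Probe 1 of Irs1 was well above background on 3 of 3 arrays in RM1-MXRA7 but on 2 of 3 in RM1-VE, and so was kept through the line where it is higher. Its values are given as a description and support nothing about the gene. It lay at 6.64, 6.88 and 6.63 in RM1-VE and at 7.0, 7.32 and 6.98 in RM1-MXRA7, without overlap. The ratio was 0.38 ± 0.05 (SD, n = 3) before surface removal and 0.29 ± 0.03 (SD, n = 3) after it. It was 0.63 in the processed signals, and 0.53 where the constant added to all intensities was 16 in place of 50.

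The rise of Irs1 therefore rests on probe 2, at 1.44-fold before surface removal and 1.24-fold after it. Without replicate 2 and with the surface removed, the ratio of probe 2 was 0.34 and missed the threshold (limma adjusted p = 0.0614).

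Because both Irs1 and Irs2 rose, the 250 bases upstream of their annotated starts are shown (RefSeq, GRCm38.p6, both genes on the minus strand, at chr1:82291440-82291689 and chr8:11008930-11009179). Capitals mark the E-box CACGTG, letters bound by basic helix-loop-helix factors such as Myc, and TGTTTTG, the core of the insulin response sequence bound by FOXO factors, searched on both strands.
Irs1: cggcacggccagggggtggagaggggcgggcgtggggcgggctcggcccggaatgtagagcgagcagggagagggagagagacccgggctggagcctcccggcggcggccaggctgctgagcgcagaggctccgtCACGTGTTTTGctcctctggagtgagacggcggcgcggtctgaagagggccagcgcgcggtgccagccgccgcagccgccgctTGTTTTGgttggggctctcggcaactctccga
Irs2: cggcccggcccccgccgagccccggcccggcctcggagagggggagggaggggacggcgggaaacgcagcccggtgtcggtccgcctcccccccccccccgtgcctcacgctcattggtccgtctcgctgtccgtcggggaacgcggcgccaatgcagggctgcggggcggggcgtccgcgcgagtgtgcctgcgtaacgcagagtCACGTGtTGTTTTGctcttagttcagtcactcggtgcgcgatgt
In Irs1 the E-box begins at -115 from the start and overlaps a TGTTTTG that begins at -111, with another TGTTTTG at -32. In Irs2 the E-box begins at -44 and TGTTTTG at -37. Of 32851 RefSeq windows of 300 bases (250 before to 50 after a start), 7.15% hold CACGTG, 6.28% hold TGTTTTG and 0.408% hold both. Of the 9 windows of the other 8 members, an E-box was found in 1 (Igfbp2) and TGTTTTG in 0, including those of Igfbp3 and Igfbp6. The GC box GGGCGG, found in 35.7% of all windows, occurs in those of Irs1, Irs2, Igf1r, Igfbp2 and Igfbp7. The letters to search were picked after these windows had been read, a match is not a measured binding site, and the arrays measured no factor's binding.

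**Figure D2:**
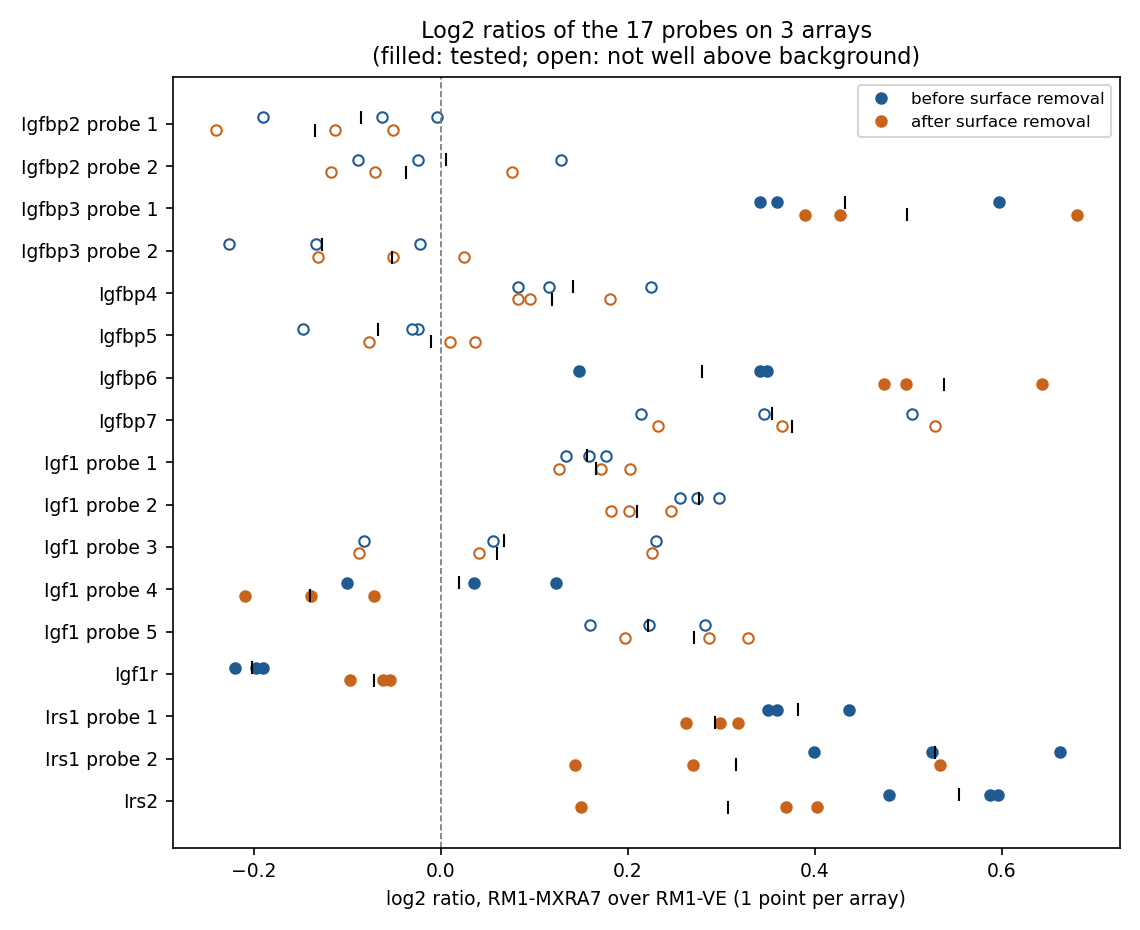
Log2 ratio of RM1-MXRA7 over RM1-VE (horizontal axis) of each of the 17 probes, with 1 point per array and a black tick at the mean, before (blue) and after (orange) surface removal. Filled points belong to the 7 tested probes and open points to those not well above background on all arrays in either line. Filled points of Igfbp3 probe 1, Igfbp6, both Irs1 probes and Irs2 lie above 0 in both fits, as do open points of Igfbp4, Igfbp7 and some Igf1 probes.

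Of the binding proteins, Igfbp3 and Igfbp6 rose. IGFBP3 is the main carrier of IGFs in serum and IGFBP6 binds IGF2 with preference over IGF1. Igfbp3 probe 1 covers chromosome 11, 7106594 to 7106653 on the minus strand, and the probe of Igfbp6 covers chromosome 15, 101979852 to 101979911 on the plus strand (mm9). Their first 30 bases show which transcripts these readings stand for.
Igfbp3 probe 1: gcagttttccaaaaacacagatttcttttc
Igfbp6: ctgtcacccttgggcctttacacagctagt
Igfbp3 probe 1 had log2 intensities of 7.32, 7.13 and 6.99 in RM1-VE and of 7.92, 7.47 and 7.35 in RM1-MXRA7. The lowest RM1-MXRA7 value lay just above the highest RM1-VE value, so the lines did not overlap. The ratio was 0.60 on array 1 and 0.34 and 0.36 on the other arrays, a mean of 0.43 ± 0.14 (SD, n = 3; limma adjusted p = 0.000381), or 1.35-fold. With the surface removed it was 0.50 ± 0.16 (SD, n = 3; limma adjusted p = 0.000957), or 1.41-fold.

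The size of the rise in Igfbp3 depends on how its low intensity is treated. Agilent's processed signals gave 0.88 ± 0.17 (SD, n = 3; limma adjusted p = 0.00252), and an added constant of 16 gave 0.54. A further probe of Igfbp3, at 7107949 to 7108008 and designed on an Ensembl transcript, was above background on no array in either line. The rise therefore rests on 1 probe. Without replicate 1 the ratio was 0.35 before and 0.41 after surface removal, and both passed.

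Igfbp6 was bright in both lines, at 14.47, 14.51 and 14.75 in RM1-VE and 14.62, 14.85 and 15.09 in RM1-MXRA7. The lines overlapped across arrays, since array 1 of RM1-MXRA7 lay below array 3 of RM1-VE, but within each array RM1-MXRA7 was higher. The ratios were 0.15, 0.34 and 0.35, with a mean of 0.28 ± 0.11 (SD, n = 3; limma adjusted p = 0.00759), or 1.21-fold. Surface removal raised them to 0.47, 0.50 and 0.64, a mean of 0.54 ± 0.09 (SD, n = 3; limma adjusted p = 0.000286), or 1.45-fold, and the processed signals gave 0.40. Of all tested probes, 3.64% had a ratio at least as large, in either direction, as its 0.54 after removal. Before removal 30.1% had a ratio at least as large as its 0.28. With median centring in place of loess, which leaves a trend of the ratio with intensity in place, the direction turned, at -0.32 (limma adjusted p = 0.00358). The call before removal was lost without replicate 2, where the ratio was 0.25 (limma adjusted p = 0.0812).

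**Figure D3:**
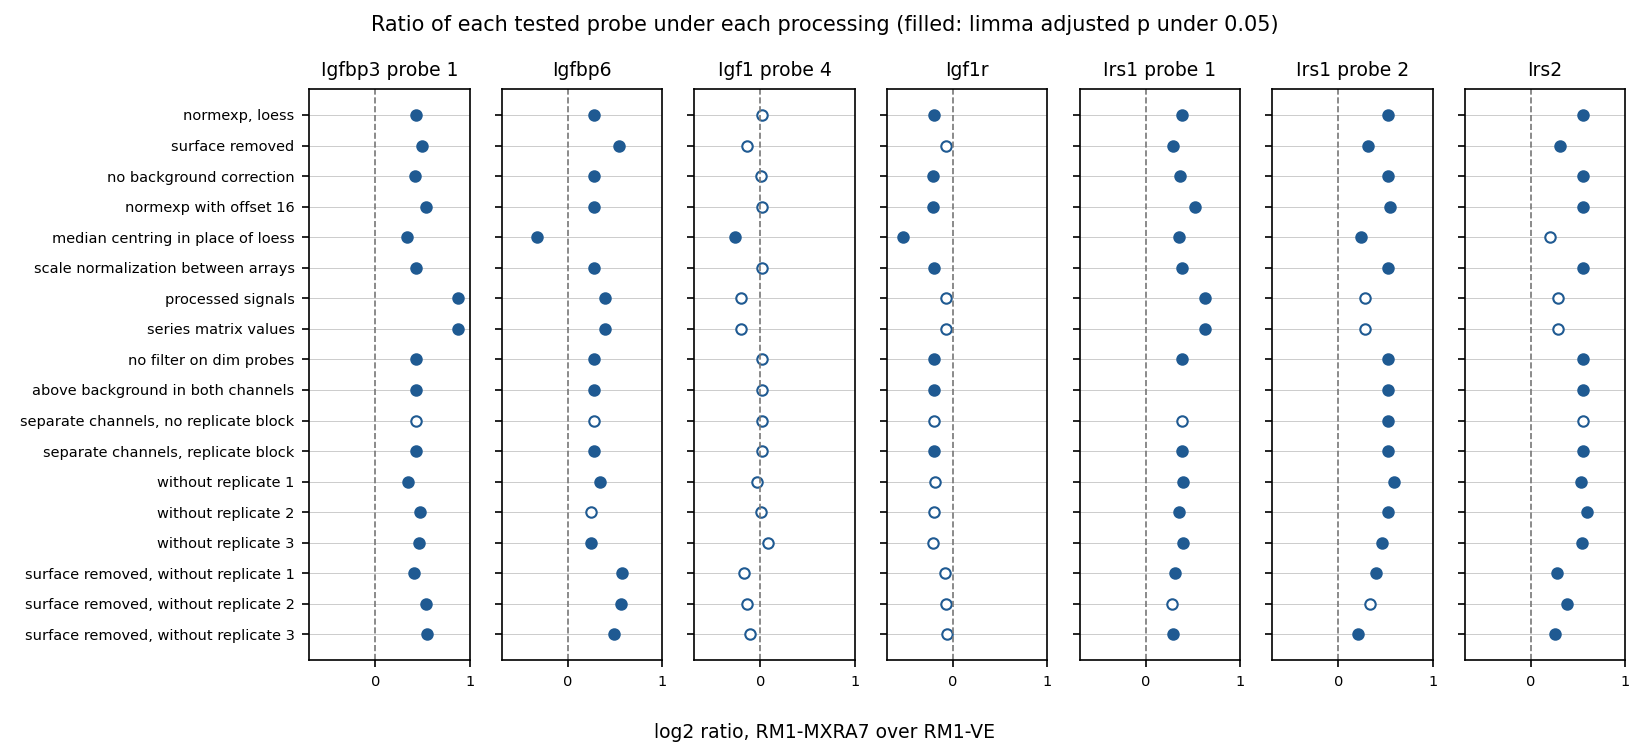
Log2 ratio of RM1-MXRA7 over RM1-VE (horizontal axis) of each tested probe under each processing (rows), with filled points where the limma adjusted p was under 0.05. Igfbp3, Irs1 and Irs2 stay above 0 in every row shown, Igfbp6 lies at -0.32 with median centring in place of loess, and probe 1 of Irs1 has no point where signal was required in both channels.

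The remaining binding proteins of the set gave no level. Igfbp2 (2 probes), Igfbp4, Igfbp5 and Igfbp7 were well above background on 0 of 3 arrays in each line, so a difference in them was not measurable and no fold is given. IGFBP7 is a low-affinity binder of IGFs, also known as a secreted tumour suppressor. Its probe read 5.91, 6.10 and 6.0 in RM1-VE and 6.42, 6.31 and 6.35 in RM1-MXRA7. Without the filter on dim probes it was called higher (limma adjusted p = 0.00265), as were probes 2 and 5 of Igf1 (limma adjusted p = 0.0051 and 0.018), but of these only probe 2 of Igf1 was above background on any array.

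The ligand gene Igf1 had 5 probes on chromosome 10, of which only probe 4 was tested. Probe 4, designed on a different transcript from the other probes, covers 87378456 to 87378515 (mm9, plus strand), and its first 30 bases are shown because it alone gave a level.
Igf1 probe 4: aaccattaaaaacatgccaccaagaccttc
It read 9.58, 9.57 and 9.80 in RM1-VE and 9.70, 9.61 and 9.70 in RM1-MXRA7, and the lines overlapped. Its ratios had no common direction, at 0.12, 0.036 and -0.10, and it did not pass before surface removal (limma adjusted p = 0.853) or after it, where it lay at -0.14 ± 0.07 (SD, n = 3; limma adjusted p = 0.0976).

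The other 4 Igf1 probes lie 15105 to 21125 bases further along the gene. Probes 5 and 1 of these overlap by 40 bases and are not separate readings. In RM1-VE none of the 4 was well above background on any array. In RM1-MXRA7 only probe 2 was, on 2 of 3 arrays, reading 6.77, 6.68 and 6.63 against 6.50, 6.38 and 6.38 in RM1-VE. The Igf1 probes therefore differ in whether they gave any signal, and only probe 4 can be compared between the lines.

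Igf1r, the receptor gene, has 1 probe, at 75378461 to 75378520 of chromosome 7 (mm9, plus strand), shown because its small difference depended on the fit.
Igf1r: gctaaagctaaggccacttgagtctattac
It read 10.82, 10.75 and 10.88 in RM1-VE and 10.60, 10.55 and 10.69 in RM1-MXRA7, without overlap and with RM1-MXRA7 lower on each array. The ratio was -0.20 ± 0.02 (SD, n = 3; limma adjusted p = 0.0336) before surface removal. After it the ratio was -0.071 ± 0.02 (SD, n = 3; limma adjusted p = 0.357), and in the processed signals -0.077 (limma adjusted p = 0.382). Where arrays were centred on the median without loess, Igf1r lay further down, at -0.53 (limma adjusted p = 0.000227). Of all tested probes, 45.8% had a ratio at least as large, in either direction, as its -0.20 before removal. After removal 70.0% had a ratio at least as large, in either direction, as its -0.071. Igf1r thus did not pass in both fits, and it is not counted as changed.

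**Figure D4:**
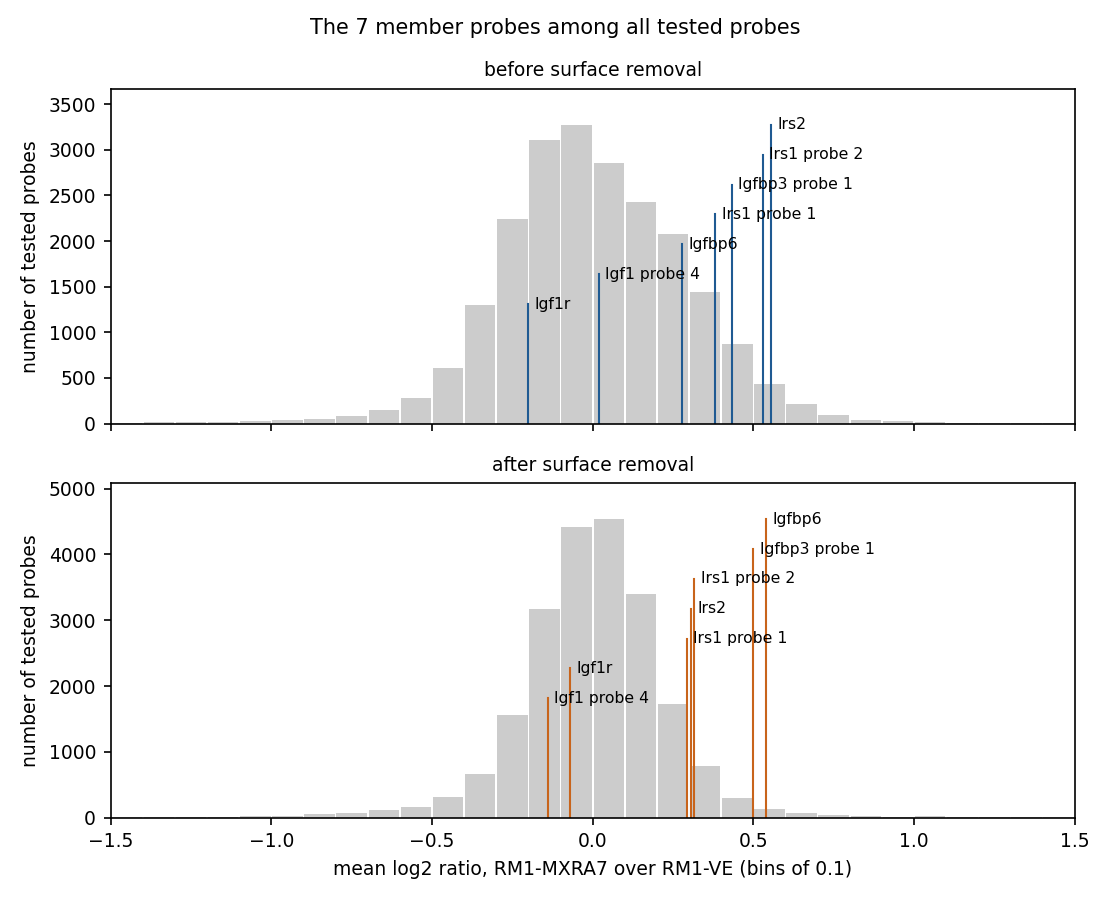
Number of tested probes (vertical axis) per bin of 0.1 of the mean log2 ratio of RM1-MXRA7 over RM1-VE, before (upper) and after (lower) surface removal, with the 7 member probes marked by lines. The 5 probes of Irs1, Irs2, Igfbp3 and Igfbp6 lie on the right of the distribution in both panels, at 0.28 to 0.55 before and 0.29 to 0.54 after removal. Among them, probe 1 of Irs1 (0.29 after removal) was kept only through the line where it is higher.

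Genes around the members in the pathway were taken from 7 lists, with each gene read from its brightest kept probe. Of 91 genes measured, 20 were higher and 11 lower in both fits, where 11.3% and 12.9% of all 16826 genes were, or 24.1% in either direction. Of these, 1 of the 20 (Grb14, named after its value was seen) and 2 of the 11 (Insrr and Esm1) were kept only through the line where they are higher. The median log2 ratio was 0.056 before and 0.050 after surface removal, against -0.015 and 0.002 for all genes.

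Other ligands and receptors were few. Igf2, Igfals, the gene of the acid-labile subunit that joins IGFBP3 in serum, and Ins1 had no kept probe. Of 4 genes measured, 1 was higher and 2 were lower in both fits, 1 of these 2 through RM1-VE alone. Among all genes the shares were 11.3% and 12.9%. The insulin receptor gene Insr lay at 0.38 ± 0.19 (SD, n = 3; limma adjusted p = 0.00148) and at 0.28 after removal, but its dimmer probes lay at 0.02 and -0.14. Igf2r, which encodes the scavenging receptor of IGF2, fell by 0.37 ± 0.18 on the log2 scale (SD, n = 3; limma adjusted p = 0.00175). Insrr, of the insulin receptor family, was the one kept through RM1-VE alone, where it was above background on 3 of 3 arrays against 0 of 3 in RM1-MXRA7. RM1-MXRA7 was lower by a bound of at least 1.498-fold (limma adjusted p = 7.98e-06). A probe kept in this way had to differ, so neither value supports a fall.

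Of 9 measured genes for other secreted proteins with an IGF binding domain, 4 rose and 1 was called lower. Among all genes the shares were 11.3% and 12.9%. Those that rose were the protease gene Htra3 at 0.50 and the matricellular genes Ccn3, Ccn4 and Ccn5 at 0.40, 0.41 and 0.39, with Ccn4 at 0.84 on a dimmer probe. Esm1, named after its value was seen, was the one called lower, but it was above background on 3 of 3 arrays in RM1-VE and on 1 of 3 in RM1-MXRA7, so no fall is drawn from it. The related Ccn1 and Ccn2 lay at -0.13 and -0.22 before removal and at 0.015 and -0.067 after it. Neither passed in both fits. Of 3 measured genes for IGFBP proteases and their inhibitors, only Ctsd, the cathepsin D gene, rose. It lay at 0.42 ± 0.19 (SD, n = 3) before removal and at 0.67 after it. A dimmer probe of Ctsd lay at 0.11 before removal and at 0.24 after it, and passed only after it. Pappa, the gene of the main protease of IGFBP4, had no kept probe.

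Of the IGF2 mRNA binding proteins, which bind and stabilise transcripts including that of IGF2, Igf2bp3 rose and the other two did not pass in both fits. Igf2bp3 lay at 1.31, 0.94 and 0.96 on the 3 arrays, a mean of 1.07 ± 0.21 (SD, n = 3; limma adjusted p = 5.17e-08), or 2.1-fold, and at 0.85 after surface removal. Igf2bp2 lay at 0.51 before and 0.16 after removal. The ratio of Igf2bp3 exceeded that of each member on all 3 arrays.

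Adaptors and feedback genes of the receptor moved both ways, with 6 of 25 higher and 4 lower, where 11.3% and 12.9% of all genes were. Of the 6, Grb14 was kept through RM1-MXRA7 alone, so no rise is drawn from it. The adaptor gene Shc2 rose by a mean of 1.01 ± 0.24 (SD, n = 3; limma adjusted p = 1.66e-07), or 2.01-fold. Its ratios were 0.74, 1.07 and 1.21 on arrays 1, 2 and 3. Grb10, an imprinted gene for an adaptor that restrains the insulin and IGF receptors, fell, being 1.79-fold lower at -0.84 ± 0.15 (SD, n = 3; limma adjusted p = 4.88e-07) and lying at -0.75 after surface removal. Grb2, the adaptor gene leading to Ras, lay at -0.62 and at -0.37 after removal, with a dimmer probe at -0.07. Gigyf2, whose product interacts with GRB10, lay at 0.64 and at 0.31 after removal.

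In the PI3-kinase, AKT and mTOR arm, 2 of 33 genes rose and 3 fell, where 11.3% and 12.9% of all genes did. Deptor, an inhibitor of mTOR, lay at -0.46 ± 0.10 (SD, n = 3; limma adjusted p = 0.000181) and at -0.28 after removal, and the PI3-kinase subunit gene Pik3r3 at -0.39 and -0.27. Tsc2, a brake on mTOR, lay at 0.26 and 0.31, and Mapkap1, a subunit gene of mTOR complex 2, at 0.21 and 0.19. A dimmer probe of Mapkap1 lay at 0.15 before removal, where it did not pass (limma adjusted p = 0.109), and at 0.24 after it. Akt1, Akt2 and Mtor lay at 0.16, -0.23 and -0.15 before removal, where Akt2 was called lower (limma adjusted p = 0.0235). After removal they lay at -0.055, -0.0071 and -0.058, and none passed in both fits.

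Among FOXO factors and genes known as FOXO targets, 5 of 14 rose and 1 fell, where 11.3% and 12.9% of all genes did. Bnip3, a mitophagy gene, lay at 0.74 ± 0.13 (SD, n = 3; limma adjusted p = 1.79e-06) and at 0.49 after removal. Its dimmer probes lay at -0.12 and 0.13 before removal, where neither passed. After it they lay at 0.19 and 0.20, where both passed (limma adjusted p = 0.0418 and 0.0264). Fbxo32, a ubiquitin ligase subunit gene, lay at 0.44 and 0.45, and the stress gene Gadd45a at 0.36 and 0.19. Pik3ip1, an inhibitor of PI3-kinase, fell by 0.78 ± 0.18 on the log2 scale (SD, n = 3; limma adjusted p = 1.8e-06), with its dimmer probe at -0.34. Foxo1 and Foxo3 themselves did not pass in both fits.

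**Figure D5:**
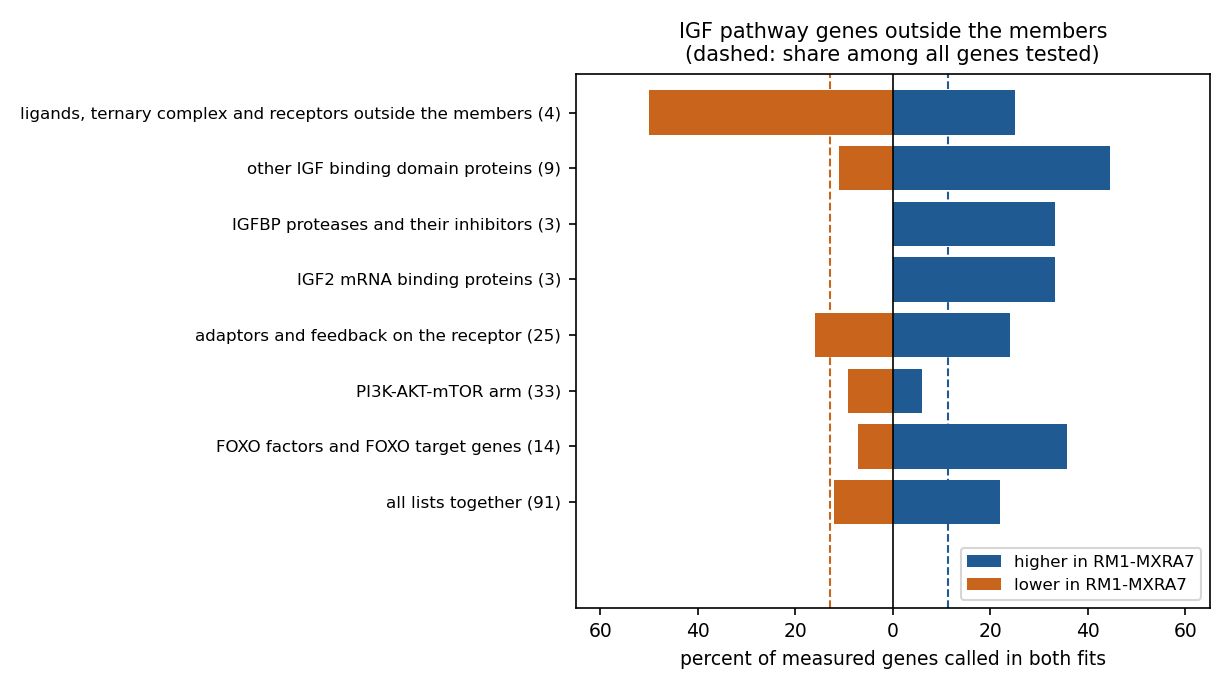
Percent of the measured genes of each pathway list (horizontal axis, number measured in parentheses) that were higher (blue) or lower (orange) in RM1-MXRA7 in both fits, with dashed lines at the shares among all genes, 11.3% and 12.9%. The lists hold 3 to 33 measured genes each, so 1 gene moves the shortest bars a long way.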

How the data were processed

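The authors deposited scanner output of Agilent Feature Extraction (version 10.7.1.1 per the submitters' processing notes), with the intensity of each spot and its background in 2 channels. A linear ratio per probe is given in the deposited series matrix. For 100% of probes spotted once it equalled processed green over red intensity within 1%, which settles its scale, direction and lack of centring. Its medians were 1.02, 1.03 and 0.972.

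Intensities were corrected by normexp (offset 50) and loess within arrays in limma 3.58.1 under R 4.3.3, control spots having weight 0. Control and outlier spots were left out, spots of 1 probe were averaged, and 21805 probes were kept, those with 1 or both channels well above background on every array. Levels per line are loess and Aquantile values. The test was lmFit and eBayes of the ratio against 0, with Benjamini-Hochberg adjustment over all kept probes. The second fit used ratios after removal of a surface (polynomials of degree 4 over row and column, alone and times intensity), and the share of variance removed was 27.2% on array 1, 26.3% on array 2 and 19.8% on array 3. The median SD between arrays was 0.116 before and 0.0951 after removal. Numbered pairs shared an array, and their pairing is built into its ratio.

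The members, lists and tests were chosen with earlier results of these data known. Named pathway genes are up to 4 per list with the smallest adjusted p among those called in both fits, and others named are given as values. Symbols of pathway genes were updated through RefSeq accessions, which matched 15 of the 17 member probes. On simulated ratios for 21805 probes, limma recovered 100% of 50 changes of 0.5, of 100 changes of 1 and of 50 changes of 2 on the log2 scale, with 7 false calls. Simulated probes were independent, so this does not give error rates in the data. The alternatives covered background, normalization, signal, filter, test and arrays left out. Some genes of the lists are not reported here by name.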

Additional observations from a re-analysis of the deposited data

How the results depend on the processing

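Of all kept probes, 10324 were called before surface removal, 6876 after it, 5124 in Agilent's processed signals and 5103 in the series matrix values, against 13575 with median centring and 14029 with no filter on dim probes, while leaving out a replicate gave 6520 to 9319, and with the surface removed as well, which was added after seeing the data, 2957 to 6294 (5933 without replicate 1). Of the 7 tested member probes, 6 were called, against 3 in the processed signals and 3 in the series matrix values. With no filter on dim probes 9 of all 17 were called. With a replicate left out 4 to 5 were called, and 3 to 5 with the surface removed as well. Median centring also gave 6, but Igfbp6, Igf1 and Igf1r among them were lower, with Igf1 at -0.26 (limma adjusted p = 0.0147). Of the 91 pathway genes measured, 52 were called before surface removal, 34 higher and 18 lower. Among all 16826 genes, 4076 were higher and 4028 lower in that fit. The pathway count was 58 with median centring, 29 in the processed signals, 29 in the series matrix values and 37 to 43 with a replicate left out. Fitting the channels separately with no replicate block left 2700 probes, 1 member probe (probe 2 of Irs1) and 16 pathway genes, whereas the replicate block gave 10314, 6 and 52. The pairing is that of 2 samples on 1 array.

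Directions that turned were those of Igf1, from 0.019 to -0.14 with the surface removed, -0.26 with median centring, and -0.21 in both the processed signals and the series matrix values, and of Igfbp6, to -0.32 with median centring. Without replicate 1, 2 or 3, Igf1 lay between -0.033 and 0.079, and with the surface removed as well between -0.17 and -0.11. Igf1r was larger with median centring, at -0.53. Irs2 did not pass with median centring (0.21), in the processed signals or in the series matrix values, and Igf1r in none of the fits with a replicate left out. Signal near background limits Igfbp3 and probe 1 of Irs1, whose ratios grew as the added constant shrank, and no alternative here removes dye bias.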
